A study of Cucumis melo with 9 samples.

Results

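Aldehyde dehydrogenases oxidize aldehydes to the matching acids with NAD or NADP as the electron acceptor. Transcripts of 5 genes of this family were followed in ripe fruit of the melon 'HT', a climacteric oriental melon (Cucumis melo). The 5 genes were taken as a fixed list of identifiers from the deposited table (MELO3C002203.2, MELO3C010494.2, MELO3C021272.2, MELO3C014601.2 and MELO3C017542.2), out of 29980 genes in all. The table describes 4 of them as aldehyde dehydrogenase and MELO3C021272.2 as a putative one. All 5 passed the filter on low values, a mean FPKM above 1 over the 9 libraries (FPKM is the read count scaled to gene length and to the library total). A further 14 genes of the table belong to the same superfamily by their descriptions and KEGG numbers, and 11 of these passed the filter.

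In plants this superfamily works where aldehydes arise as intermediates or as toxic products. One branch, pyrroline-5-carboxylate (P5C) dehydrogenase, completes the breakdown of proline to glutamate in mitochondria, after proline dehydrogenase has made P5C. Other branches oxidize acetaldehyde, fatty aldehydes from lipid breakdown, betaine aldehyde, the semialdehydes of valine and GABA breakdown, and coniferaldehyde of the phenylpropanoid pathway. In melon fruit, aldehydes are also the precursors of the alcohols from which aroma esters are made, and an aldehyde that is oxidized is no longer available for that route.

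The 3 groups had 3 libraries each, and each library came from 3 fruits. Unchilled fruit (group C) were picked when ripe, 8 d later than the others, without storage. Chilled fruit (group B) spent 8 d at 4°C, and recovered fruit (group A) spent 7 d at 4°C followed by 1 d at about 22°C. All fruit came from a greenhouse, the stored fruit are described as free of chilling injury, and the harvest date cannot be told apart from storage wherever a stored group is set against the unchilled one. Nothing in the labels says that replicates came from separate plants, so p-values measure the spread between these libraries only.

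Depth lay between 15508367 and 19011486 counts per library. Levels below are FPKM rescaled by TMM factors, which were 0.764 to 0.809 in the chilled libraries and 1.11 to 1.13 in all others. The labels say only that the tissue was ripe fruit, without naming flesh or saying whether peel and seeds were removed. Of 120 genes for polygalacturonases, expansins and ethylene-forming ACC oxidases, 64 to 71 had counts in a group, with a summed level of 1818 to 2160 in chilled, 3522 to 3857 in unchilled and 2536 to 4528 in recovered fruit. Markers of other tissues were present as well. The summed level of 30 genes for cuticular wax and cutin synthesis, which mark the fruit surface, was 3823, 1164 and 1307 in the unchilled libraries, 863, 426 and 494 in the chilled ones and 529, 1217 and 1024 in the recovered ones. Unchilled replicate 1 therefore stood apart, with chilled replicate 1 the highest and recovered replicate 1 the lowest of their groups. Of these 30 genes, 3 to 5 were at 0 in a group, and 2 genes for 3-ketoacyl-CoA synthases were at 0 in every library. Sums for 89 genes of photosystems and light-harvesting proteins were 22650 to 32100 in unchilled, 9277 to 10860 in chilled and 9493 to 12930 in recovered fruit, with 23 of these genes at 0 throughout. Phloem genes (18, of which a phloem lectin and 2 PP2-like genes were at 0 throughout) summed to 299 to 551, 234 to 316 and 79.7 to 109. Seed genes (16, for oleosins and storage proteins) summed to 79.2 to 92.4 in unchilled, 137 to 173 in chilled and 38.3 to 41.3 in recovered fruit. Among them 3 genes for 11S globulins and 1 for 2S albumin were at 0 in every library.

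Chilled fruit held far more transcript of the P5C dehydrogenase and less of the other 4 genes than unchilled fruit. MELO3C002203.2 was 4.57-fold higher, and MELO3C010494.2, MELO3C021272.2, MELO3C014601.2 and MELO3C017542.2 were 4.11-, 3.41-, 5.58- and 4.84-fold lower. Thus 1 of 5 genes rose and 4 fell under the threshold used throughout, an absolute log2 fold change above 1 with a Benjamini-Hochberg adjusted p below 0.05 in edgeR's quasi-likelihood test over 15022 genes. Over all these genes 48.3% were called, 22.1% higher and 26.2% lower. The libraries of both groups did not overlap for any of the 5 genes, as for 78.3% of all tested genes. Since the 5 genes were listed with results of these data known, their count carries no weight against this background.

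After 1 d of warming the P5C dehydrogenase was lower again than in chilled fruit, and 2 of the other 4 genes were higher. For recovered against chilled fruit the count was 2 higher and 1 lower of 5, where 50.4% of all tested genes were called, 25.1% higher and 25.3% lower. Libraries did not overlap for 4 of 5 genes, against 79.9% of all genes. Between recovered and unchilled fruit 1 gene, MELO3C010494.2, was higher and none was lower, where 12.8% of all genes were called, 3.66% higher and 9.15% lower. Here 3 of 5 genes did not overlap, as did 52.9% of all genes. The 3 comparisons share their libraries and are not independent of each other.

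**Figure D1:**
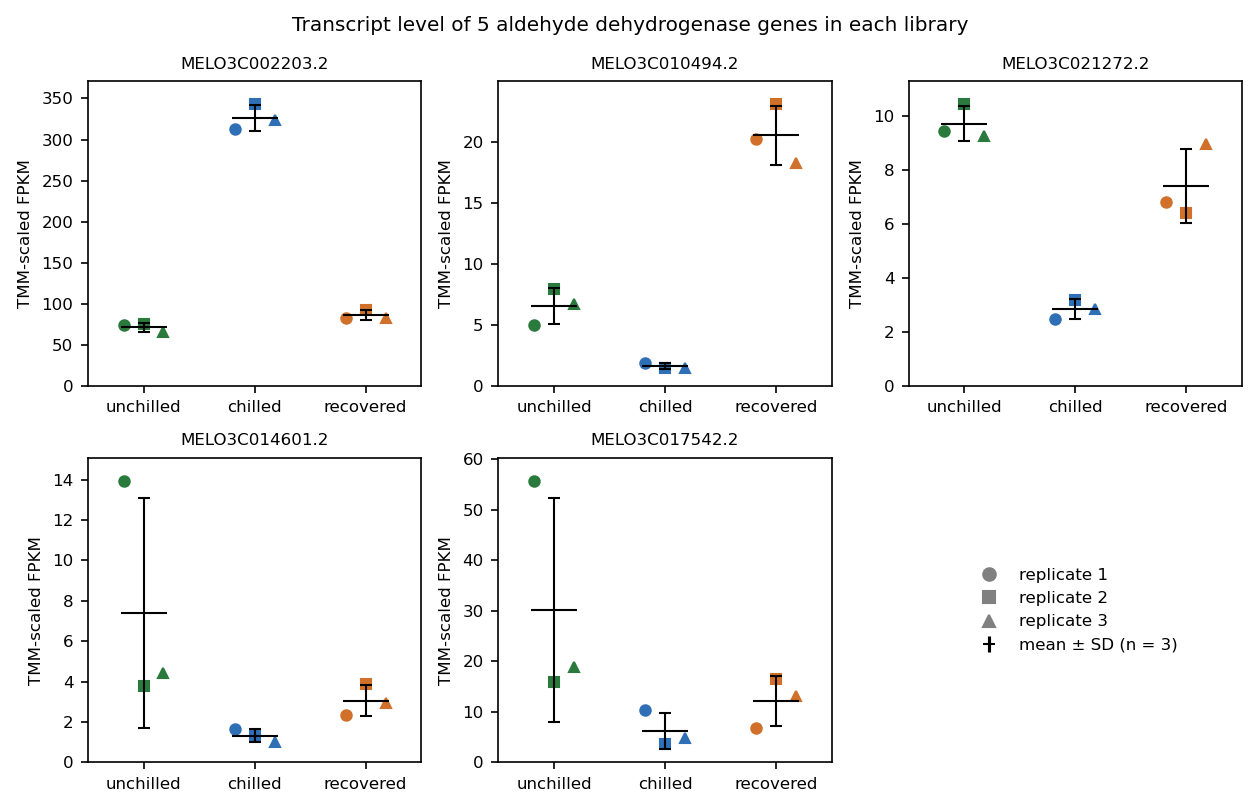
Transcript level (TMM-scaled FPKM, each panel with its own axis from 0) of the 5 aldehyde dehydrogenase genes in 9 libraries; points are libraries and bars are mean ± SD (n = 3). MELO3C002203.2 sits at 312 to 343 in chilled fruit and at 65.3 to 92.8 elsewhere, MELO3C010494.2 is highest in recovered fruit, and 1 unchilled library stands above the others for MELO3C014601.2 and MELO3C017542.2.

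MELO3C002203.2 is the melon gene for P5C dehydrogenase by the table's annotation. It is the only gene in the table with KEGG number K00294 and the only one with the ontology terms for that activity and for proline catabolism to glutamate. It lies on chromosome 12 at positions 25626149 to 25631825 on the minus strand, with a gene length of 2478 bases (coordinates are those of the table, and the study's methods name the melon DHL92 genome). Its level was 73.8, 75.0 and 65.3 in the unchilled libraries, 312, 343 and 324 in the chilled ones, and 82.6, 92.8 and 82.8 in the recovered ones. All 3 chilled libraries were far above the other 6, and the lowest recovered library was above the highest unchilled one. The counts behind these levels were 2922 to 12211, so that the 95% exact Poisson interval of each library is at most ±3.64% wide. Such intervals cover counting error only.

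The group means of MELO3C002203.2 were 71.4 ± 5.29 (SD, n = 3) without storage, 326 ± 15.6 in the cold and 86.1 ± 5.83 after warming. Between chilled and unchilled fruit the log2 fold change was 2.19 (SE 0.0925, adjusted p 6.92e-08), and between recovered and chilled fruit it was -1.92 (SE 0.0916, adjusted p 1.19e-07). The difference left after warming, 0.27 (SE 0.0889, adjusted p 0.0403), was under the fold threshold. Among tested genes of the superfamily, it ranked the fifth highest of 16 in unchilled, the first in chilled and the fourth in recovered fruit. The seed markers given above also had their highest sum in chilled fruit, and their part in the result was not tested. MELO3C012886.2 alone averaged 87.4 of that sum, whereas in unchilled fruit the highest seed gene was MELO3C005464.2 at 38.1.

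Transcript levels changed for both steps of proline breakdown. MELO3C022076.2, proline dehydrogenase, which oxidizes proline to P5C, was at 2.06, 3.42 and 4.57 in unchilled, 38.4, 32.5 and 20.3 in chilled and 10.2, 10.8 and 7.17 in recovered libraries. It rose by 3.18 on the log2 scale in chilled against unchilled fruit (SE 0.339, adjusted p 2.91e-05) and was 1.70 lower in recovered than in chilled fruit (log2 fold change -1.70, SE 0.315). It was also called higher in recovered than in unchilled fruit, by 1.48 on the log2 scale, whereas the P5C dehydrogenase was under the fold threshold there, a difference between the genes that was not tested. No other tested gene of proline metabolism was called in chilled against unchilled fruit, so that 2 of 6 rose and 0 fell. Over all genes 22.1% rose and 26.2% fell. The median log2 fold change was 0.12 in the list, against -0.06 over all genes. The 2 genes that rose include MELO3C002203.2 itself, which was listed with results of these data known. Their count therefore carries no weight against this background.

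P5C synthetase, which makes P5C from glutamate for proline synthesis, itself belongs to the aldehyde dehydrogenase superfamily by its C-terminal part. The expressed gene, MELO3C008245.2, averaged 28.0 ± 1.80 (SD, n = 3) without storage, 15.9 ± 1.99 in the cold and 23.6 ± 0.627 after warming. Its log2 fold change of -0.81 (SE 0.101) missed the fold threshold in chilled against unchilled fruit. With library totals in place of TMM factors this became -1.31 and passed, as it did with limma (-1.25 and -1.31), but the median of all genes was then at -0.56 and, with limma, at -0.49 and -0.56. Given in the order unchilled, chilled, recovered, P5C reductase (MELO3C019039.2) averaged 53.0, 69.2 and 50.1, ornithine aminotransferase (MELO3C002752.2) at 106, 96.8 and 95.3, and arginase (MELO3C022492.2) at 72.3, 64.6 and 64.1. The ratio of P5C dehydrogenase to P5C synthetase transcript per library was 2.38 to 2.78 in unchilled, 17.9 to 22.1 in chilled and 3.5 to 3.83 in recovered fruit. These ranges do not overlap, and a two-sided exact permutation test gave p = 0.1 in each comparison, the smallest value that 3 against 3 libraries allow.

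**Figure D2:**
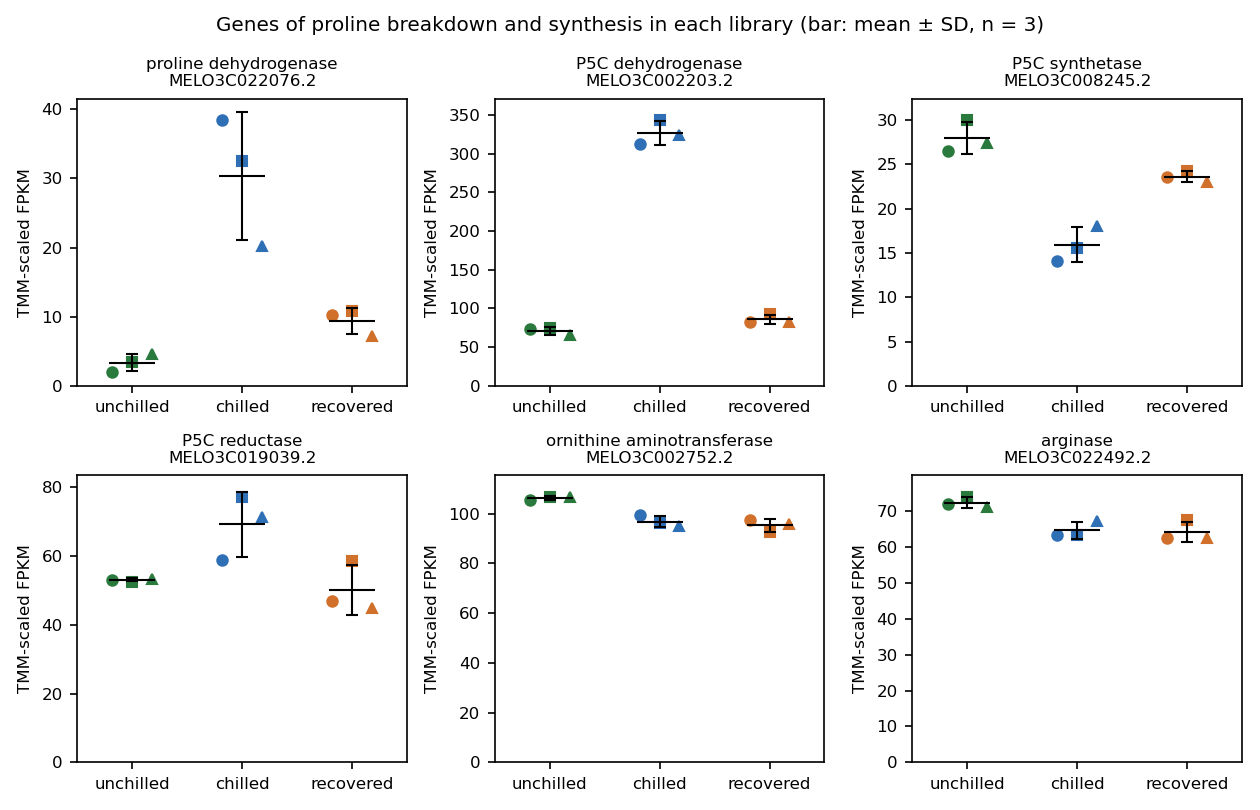
Level (TMM-scaled FPKM, axes from 0) of the 6 tested genes of proline breakdown and synthesis in each library; circles, squares and triangles are replicates 1, 2 and 3, and bars are mean ± SD (n = 3). Proline dehydrogenase and P5C dehydrogenase are highest in the 3 chilled libraries, whereas P5C synthetase is lowest there.

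MELO3C010494.2 is one of 6 genes of the table with KEGG number K00128, the general aldehyde dehydrogenase that oxidizes acetaldehyde and longer aldehydes with NAD. It lies on chromosome 7 at 8688180 to 8695438 on the minus strand (gene length 2119 bases). Its level was 4.99, 7.94 and 6.74 in the unchilled libraries, 1.88, 1.46 and 1.46 in the chilled ones, and 20.3, 23.1 and 18.3 in the recovered ones. The 3 groups did not overlap, and recovered fruit exceeded not only chilled but also unchilled fruit. The log2 fold change was -2.04 (SE 0.203, adjusted p 1.24e-05) for chilled against unchilled, 3.69 (SE 0.207, adjusted p 2.87e-07) for recovered against chilled, and 1.65 (SE 0.181, adjusted p 0.000291) for recovered against unchilled fruit. On the linear scale recovered fruit were 12.9-fold above chilled and 3.13-fold above unchilled fruit. The chilled counts were low, 39 to 49 per library, and the 95% exact Poisson interval of the lowest, 27.7 to 53.3, stayed far below the unchilled counts of 182 to 316.

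The place of MELO3C010494.2 in the genome bears on how its reads were counted. It overlaps by 1220 bases with MELO3C010495.2, a DnaJ chaperone gene on the plus strand, and the sources used here do not give a strand setting for the counting, so reads from the overlap cannot be assigned with certainty. The DnaJ gene averaged 2.47, 2.32 and 3.31 over the unchilled, the chilled and the recovered libraries and was not called in any comparison. At its other end, 994 bases away and on the same strand, lies a further aldehyde dehydrogenase gene with the same KEGG number, MELO3C010493.2. This neighbour was at 19.9, 14.3 and 14.0 in unchilled, 7.91, 14.3 and 13.4 in chilled and 15.2, 16.0 and 18.6 in recovered libraries, and its log2 fold changes of -0.44, 0.48 and 0.05 (SE 0.226, 0.226 and 0.222) were not called. The ratio of MELO3C010494.2 to this neighbour was 0.250 to 0.557 in unchilled, 0.102 to 0.238 in chilled and 0.983 to 1.45 in recovered libraries. The adjacent genes thus differed in their log2 response by -1.55, 3.16 and 1.61 in the 3 comparisons (exact permutation p = 0.1 each, the smallest possible), and the ratios of the groups did not overlap.

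MELO3C021272.2, without a KEGG number but with the ontology term for NAD-dependent aldehyde dehydrogenase activity, lies on chromosome 11 at 30741545 to 30749629 on the minus strand (2261 bases). Its level was 9.45, 10.4 and 9.24 in the unchilled libraries, 2.48, 3.20 and 2.85 in the chilled ones, and 6.81, 6.42 and 8.96 in the recovered ones. Chilled libraries were lowest, and every recovered library was between them and the unchilled ones. It fell by 1.77 on the log2 scale in chilled against unchilled fruit (SE 0.165, adjusted p 7.87e-06) and rose by 1.38 in recovered against chilled fruit (SE 0.164, adjusted p 3.90e-05). Recovered and unchilled fruit differed by -0.39 (SE 0.154, adjusted p 0.0758), which was not called. The counts were 69 to 98 in chilled and 271 to 443 in all other libraries.

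MELO3C014601.2 and MELO3C017542.2, also of KEGG number K00128, varied among unchilled replicates far more than the other 3 genes. MELO3C014601.2 (chromosome 5, 1034636 to 1040287, minus strand, 1664 bases) was at 14.0, 3.78 and 4.43 in the unchilled libraries, 1.66, 1.29 and 1.03 in the chilled ones, and 2.36, 3.86 and 2.95 in the recovered ones. MELO3C017542.2 (chromosome 7, 24965048 to 24967853, plus strand, 1830 bases) was at 55.8, 16.0 and 18.9 in the unchilled, 10.4, 3.65 and 4.77 in the chilled and 6.89, 16.5 and 13.1 in the recovered libraries. For both genes unchilled replicate 1 was about as far above its group as it was for the surface markers, chilled replicate 1 was the highest chilled library and recovered replicate 1 the lowest recovered one. The coefficient of variation within unchilled fruit was 77.1% and 73.5%, against 6.58% to 22.7% for the other 3 genes.

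Both genes were called lower in chilled than in unchilled fruit, with log2 fold changes of -2.48 (SE 0.525, adjusted p 0.00208) for MELO3C014601.2 and -2.27 (SE 0.603, adjusted p 0.00779) for MELO3C017542.2. Without unchilled replicate 1 these were -1.65 and -1.50, and both remained past the threshold (adjusted p 0.000856 and 0.024, within 3.57e-06 to 0.0118 and 6.59e-05 to 0.0308 over all alternatives). Neither was called in recovered against chilled fruit, at 1.21 (SE 0.526, adjusted p 0.0604) and 0.96 (SE 0.592, adjusted p 0.166), nor in recovered against unchilled fruit, at -1.27 (SE 0.480, adjusted p 0.0678) and -1.31 (SE 0.572, adjusted p 0.108). Without unchilled replicate 1 the last pair shrank to -0.44 and -0.54, and MELO3C014601.2 passed in recovered against chilled fruit (1.21, adjusted p 0.00293, within 0.00293 to 0.164 over all alternatives).

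The levels of both genes moved with the summed surface markers from library to library, a relation that was looked at after the values were seen. Per 1000 units of that sum, MELO3C017542.2 was at 14.6, 13.7 and 14.4 in unchilled, 12.0, 8.55 and 9.66 in chilled and 13.0, 13.6 and 12.8 in recovered libraries. The level itself ranged from 3.65 to 55.8. Relative to the surface markers, chilled fruit were at 0.707 times unchilled fruit (exact permutation p = 0.1, the smallest possible), where the fit above had 0.207. The divisor itself differed between the groups. Of 19 tested surface genes 0 were higher and 8 lower in chilled against unchilled fruit (median log2 fold change -1.43), where 26.2% of all genes were lower. Division by a sum that is lower in the cold shrinks the fall of any gene. MELO3C014601.2 gave 3.65, 3.24 and 3.39, then 1.93, 3.02 and 2.08, and 4.47, 3.17 and 2.88, with a ratio of chilled to unchilled of 0.683 (exact permutation p = 0.1) and overlapping chilled and recovered libraries (exact permutation p = 0.2). For the other 3 genes the same quotient did not even out the libraries, with 19.3 to 64.4 for MELO3C002203.2 and 2.47 to 8.96 for MELO3C021272.2 within unchilled fruit alone. The part of surface tissue in these results was not tested, and in such bulk samples fewer cells of a type and less RNA per cell cannot be told apart.

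**Figure D3:**
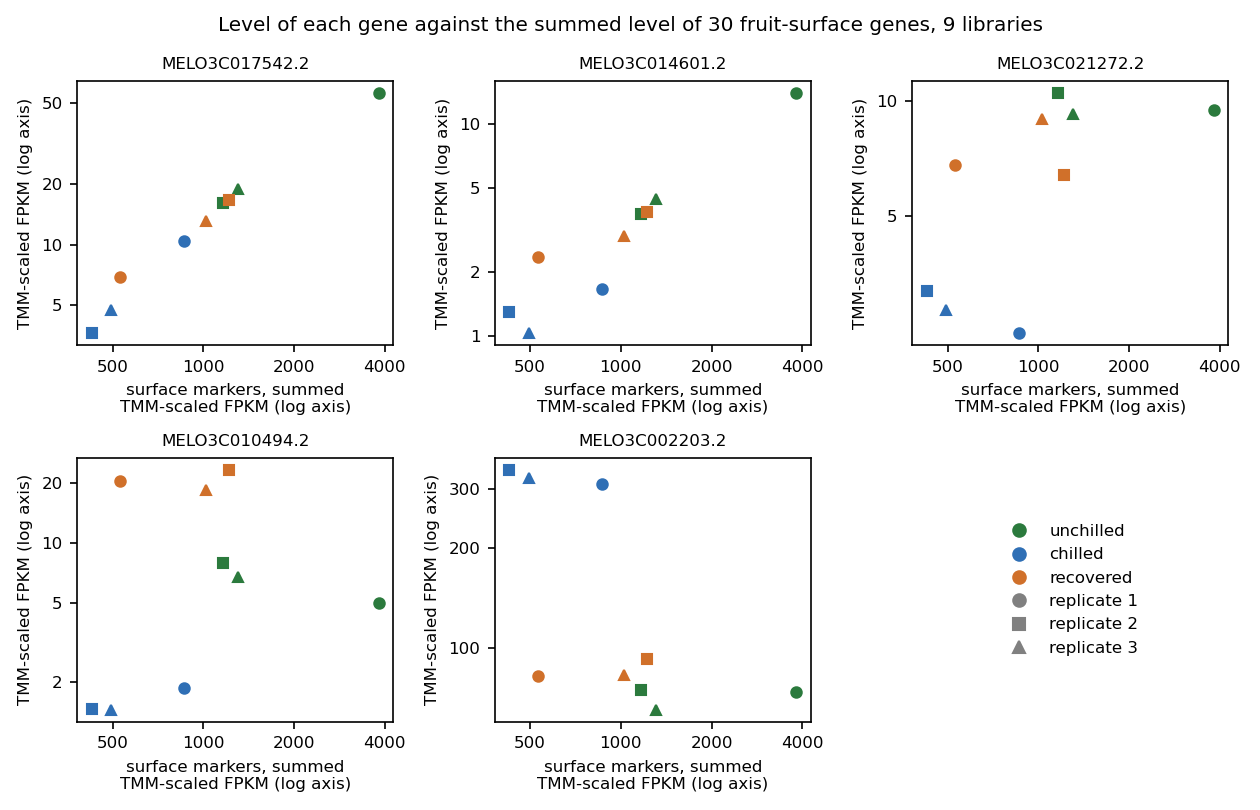
Level of each of the 5 genes (y, TMM-scaled FPKM, log axis) against the summed level of 30 surface genes (x, TMM-scaled FPKM, log axis) in 9 libraries, coloured by group and marked by replicate. For MELO3C017542.2 and MELO3C014601.2 the level rises with the sum over its range of 426 to 3823. Chilled libraries lie below the unchilled ones per unit of that sum. Per 1000 units, MELO3C017542.2 is at 8.55 to 12.0 in chilled and 13.7 to 14.6 in unchilled libraries. MELO3C014601.2 is at 1.93 to 3.02 in chilled and 3.24 to 3.65 in unchilled libraries. The libraries of the other 3 genes separate by group.

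MELO3C002203.2 had the highest level of the 5 genes in each group, and the order of the others was as follows. In unchilled fruit it was followed by MELO3C017542.2 (30.2 ± 22.2, SD, n = 3) and MELO3C021272.2 (9.71 ± 0.639), and neither MELO3C021272.2 and MELO3C014601.2 (7.39 ± 5.70) nor MELO3C014601.2 and MELO3C010494.2 (6.56 ± 1.49) were apart beyond their libraries. In chilled fruit the P5C dehydrogenase was 52.2 times the next gene, MELO3C017542.2 (6.26 ± 3.59), and the lowest pair, MELO3C010494.2 (1.60 ± 0.243) and MELO3C014601.2 (1.33 ± 0.319), overlapped. In recovered fruit MELO3C010494.2 (20.6 ± 2.44) came second, ahead of MELO3C017542.2 (12.2 ± 4.88), which overlapped with MELO3C021272.2 (7.39 ± 1.37), and MELO3C014601.2 (3.06 ± 0.754) was last.

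Summed over the 5 genes, the level was 125 ± 28.7 (SD, n = 3) without storage, 338 ± 12.7 in the cold and 129.2 ± 12.2 after warming. Without the P5C dehydrogenase the sum was lowest in the cold, at 53.9 ± 26.3, 12.0 ± 3.78 and 43.2 ± 6.78. The unchilled mean rests on replicate 1, at 84.2 against 38.1 and 39.3 in the others, and recovered libraries lay at 36.4 to 49.9. MELO3C002203.2 alone made up 10.4% ± 0.375 of the summed level of the 16 tested superfamily genes in unchilled fruit, 36.5% ± 2.03 in chilled and 11.9% ± 0.536 in recovered fruit, with no overlap between groups (exact permutation p = 0.1, the smallest possible). The other 15 genes together were at 616 ± 24.4, 569 ± 52.6 and 635 ± 15.7.

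Likeness of pattern was measured as the root-mean-square difference of centred log2(TMM-scaled CPM + 1) over the 9 libraries, among 14236 described genes. Closest to MELO3C002203.2 were a gene for a dehydration-responsive element binding factor (MELO3C026025.2, 0.071), a peptidyl-prolyl isomerase (MELO3C006176.2, 0.0787) and a mitochondrial substrate carrier (MELO3C023897.2, 0.0822), where the median gene was at 1.07. MELO3C026025.2, for example, averaged 26.5 ± 1.30 without storage, 119 ± 9.13 in the cold and 30.4 ± 3.99 after warming. MELO3C010494.2 was closest to a protein kinase (MELO3C010263.2, 0.200), a cytochrome P450 (MELO3C030350.2, 0.201) and an alanine aminotransferase (MELO3C022699.2, 0.217), with a median of 1.43. The alanine aminotransferase was at 57.6, 15.0 and 151, so that it too was higher in recovered than in unchilled fruit.

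For MELO3C021272.2 the closest were MELO3C024228.2 (a MAR-binding filament-like protein, 0.107), MELO3C014936.2 (BRO1 domain, 0.108) and MELO3C023207.2 (SUPPRESSOR OF GENE SILENCING 3, 0.109), with a median of 0.799. MELO3C014936.2 was near the floor, with 1, 4 and 1 counts in the chilled libraries. Its log2 fold change in chilled against unchilled fruit was -4.10, against -1.77 for MELO3C021272.2. The 1 added to the CPM flattens such low genes. MELO3C014601.2 was closest to an O-glucosyltransferase (MELO3C006903.2, 0.224), an aquaporin (MELO3C014238.2, 0.226) and a WSD1-like O-acyltransferase (MELO3C018692.2, 0.230), with a median of 0.968. Chilled counts were low here too, at 10, 1 and 4 for MELO3C006903.2 and 16, 7 and 5 for MELO3C018692.2. MELO3C017542.2 was closest to a cinnamoyl-CoA reductase (MELO3C021865.2, 0.196), a squalene monooxygenase (MELO3C018550.2, 0.220) and an isoflavone reductase-like gene (MELO3C029054.2, 0.271), with a median of 1.12. The neighbours in pattern of MELO3C014601.2 and MELO3C017542.2 shared the high value in unchilled replicate 1, for example 146, 36.2 and 40.8 for the cinnamoyl-CoA reductase. Among the 5 genes themselves MELO3C014601.2 and MELO3C017542.2 were the most alike (0.328) and MELO3C002203.2 and MELO3C010494.2 the least (2.24). The gene 752 bases from MELO3C002203.2 on the same strand, MELO3C002204.2 of the P-loop hydrolases, averaged 23.3 without storage, 79.1 in the cold and 29.4 after warming.

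The means below stand in the order unchilled, chilled, recovered. Of the 11 other tested genes of the superfamily, 0 rose and 2 fell in chilled against unchilled fruit, 2 rose and 2 fell in recovered against chilled, and 0 rose and 1 fell in recovered against unchilled fruit. Over all genes 48.3%, 50.4% and 12.8% were called in these comparisons. MELO3C004383.2, a family 2 member of KEGG number K00128, fell from 36.3 ± 2.38 to 16.9 ± 1.82 (SD, n = 3) in chilled fruit (log2 fold change -1.10, SE 0.164). It was at 40.9 ± 9.83 in recovered fruit (1.27 against chilled, SE 0.164). MELO3C007705.2, a methylmalonate-semialdehyde dehydrogenase, which acts at the end of valine breakdown, went from 15.1 ± 1.43 to 5.30 ± 0.362 and then 16.2 ± 1.69 (-1.51 and 1.61). A further gene for this enzyme, MELO3C018583.2, was at 91.1, 70.5 and 136, with changes of -0.37 and 0.95 that were not called. The second passed with library totals (1.45), limma (1.45 and 1.46), no filter (1.09), 2 groups in the fit (1.04) and without chilled replicate 3 (1.07).

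A family 2 gene, MELO3C017100.2, was at 84.4 ± 18.4, 89.1 ± 21.2 and 44.3 ± 9.38, lower in recovered than in chilled fruit by -1.01 (SE 0.230), a value at the threshold whose call was lost with library totals (-0.51), limma (-0.49 with either pseudocount), no filter (-0.87), 2 groups in the fit (-0.92) and without chilled replicate 2 (-0.87), among others. MELO3C025328.2, of KEGG number K12355 for coniferaldehyde dehydrogenase, was low, with 6 to 84 counts per library. Its level was 1.72 ± 0.740, 1.76 ± 0.730 and 0.385 ± 0.257, and it was lower in recovered than in chilled (-2.19, SE 0.548) and unchilled fruit (-2.15, SE 0.543). The first call was lost with limma at a pseudocount of 1 (-0.73), and the second without recovered replicate 3 (-2.02, adjusted p 0.053, within 0.00103 to 0.053 over all alternatives) and at an adjusted p below 0.01. Abundant genes in every group, antiquitin-like MELO3C024345.2 (142 ± 11.6, 208 ± 29.1 and 148 ± 8.59) and betaine-aldehyde dehydrogenase MELO3C017125.2 (111 ± 2.46, 115 ± 7.64 and 132 ± 7.85), were not called in any comparison. The mitochondrial succinate-semialdehyde dehydrogenase of the GABA shunt, MELO3C019622.2, was at 30.9 ± 5.15, 16.0 ± 1.76 and 29.1 ± 6.0 (-0.95 in chilled against unchilled fruit, SE 0.172, under the fold threshold). This value passed with library totals (-1.45), limma (-1.38 and -1.44), no filter (-1.09) and without chilled replicate 3 or unchilled replicate 2 (both -1.05). The genes that did not pass the filter were MELO3C009229.2, a further P5C synthetase with 5 to 41 counts per library, and MELO3C029215.2 and MELO3C029889.2, both with no counts. The non-phosphorylating glyceraldehyde-3-phosphate dehydrogenase MELO3C004430.2 was at 5.6, 6.5 and 5.10. Over the whole superfamily the median log2 fold change was -0.62, 0.72 and -0.02 in the 3 comparisons, against -0.06, -0.02 and 0.01 over all tested genes.

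**Figure D4:**
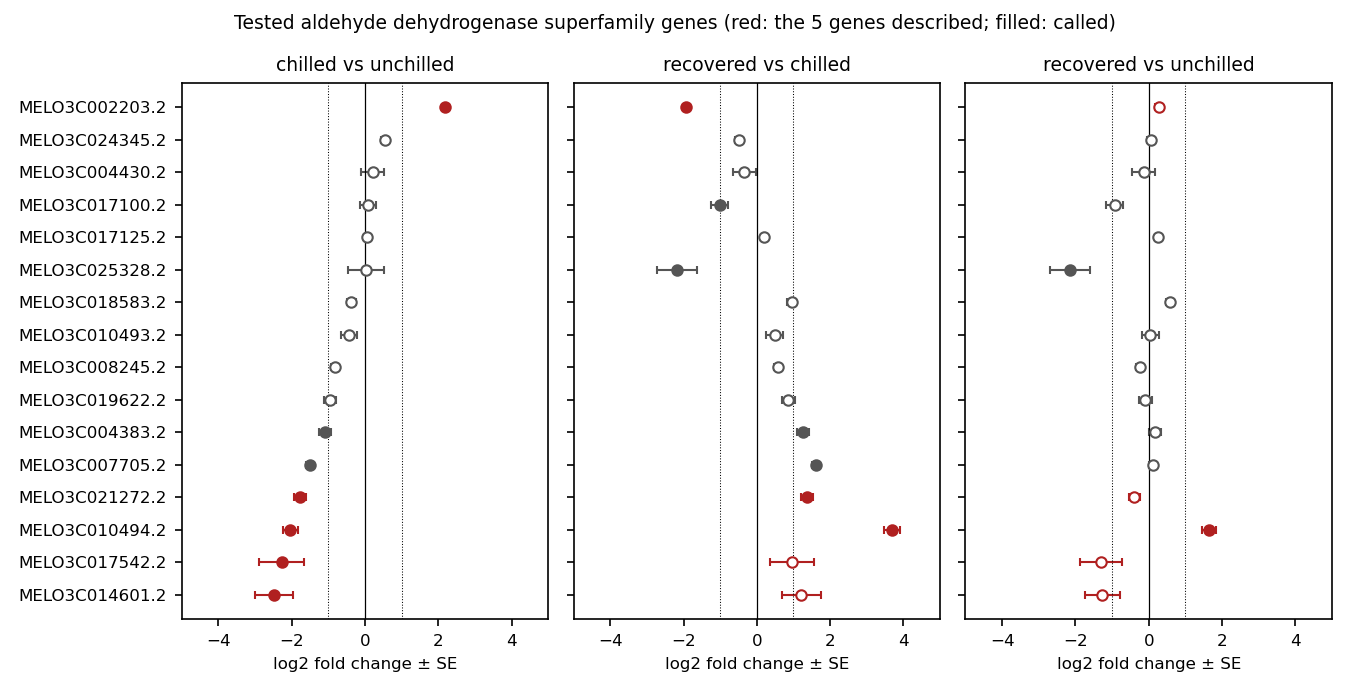
Log2 fold change ± SE (edgeR, 3 libraries per group) of the 16 tested genes of the aldehyde dehydrogenase superfamily in the 3 comparisons; red marks the 5 genes described, filled points passed the threshold, and dotted lines stand at ±1. MELO3C002203.2 is the only filled point on the right for chilled against unchilled fruit, and MELO3C010494.2 the only one on the right for recovered against unchilled fruit.

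Enzymes that feed aldehydes to the family, or compete for them, were counted from lists by annotation. Such lists can hold superfamily genes already given above, as the proline list does with MELO3C002203.2 and MELO3C008245.2. The branched-chain list has its median in chilled against unchilled fruit, -0.37, at the value of MELO3C018583.2. Counts of the lists are therefore not independent of those of the superfamily. Pyruvate decarboxylases and acetyl-CoA synthetases stand before and after the oxidation of acetaldehyde. The counts below are to be read against all tested genes, of which 22.1% were higher and 26.2% lower in chilled against unchilled fruit and 25.1% higher and 25.3% lower in recovered against chilled fruit. Of 8 tested, 1 rose and 3 fell in chilled against unchilled fruit (median -0.46), and 4 rose and 1 fell in recovered against chilled fruit (median 0.89). Acetyl-CoA synthetase MELO3C014682.2 rose in the cold from 1.20 ± 0.533 to 11.6 ± 1.24 (SD, n = 3), whereas MELO3C031046.2 fell from 76.5 ± 17.3 to 10.7 ± 1.77 and MELO3C000769.2 from 12.7 ± 3.28 to 3.16 ± 0.507. Alcohol dehydrogenases, which reduce aldehydes, had 0 higher and 6 lower of 13 in chilled fruit (median -0.39) and 3 higher and 0 lower after warming (median 0.00). MELO3C023685.2 was at 182 ± 47.7, 24.1 ± 1.92 and 479 ± 109, higher in recovered than in unchilled fruit, as MELO3C010494.2 was. MELO3C007702.2 was at 16.3, 4.41 and 3.61. It is described as a putative alcohol dehydrogenase, but its KEGG number, K00083, is that of the cinnamyl alcohol dehydrogenase MELO3C019548.2 named below.

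In the GABA shunt 2 of 6 genes rose and 1 fell in chilled against unchilled fruit (median 0.26), where 48.3% of all genes were called in either direction, and 1 rose and 4 fell in recovered against chilled fruit (median -1.14). Glutamate decarboxylase MELO3C001938.2 fell from 681 ± 171 to 60.1 ± 10.4, while the less abundant glutamate decarboxylase MELO3C005224.2 rose from 5.04 ± 2.35 to 17.3 ± 1.35. Of 21 genes of branched-chain amino acid breakdown, 4 rose and 9 fell in chilled fruit (median -0.37), and 7 rose and 3 fell after warming (median 0.38). They include the aminotransferase MELO3C010776.2 (329 ± 161, 12.4 ± 0.742 and 1031 ± 242) and MELO3C006679.2, an acyltransferase subunit of KEGG number K09699 (17.3, 3.23 and 32.7), both lower in the cold. In the same list MELO3C011705.2, of KEGG number K00166 for a ketoacid dehydrogenase subunit (111 ± 29.7, 650 ± 29.2 and 82.1 ± 7.82), and acyl-CoA dehydrogenase MELO3C025757.2 (10.7, 56.4 and 20.9) were higher in the cold, as the P5C dehydrogenase was.

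Among polyamine and amine oxidases, which release aminoaldehydes, 2 of 6 rose and 0 fell in chilled fruit (median 0.88), where 22.1% of all genes rose and 26.2% fell, and 0 rose and 2 fell after warming (median -0.97). Polyamine oxidase MELO3C023571.2 was at 2.23, 1.49 and 3.86 in unchilled, 65.1, 35.2 and 37.5 in chilled and 8.42, 67.8 and 4.85 in recovered libraries, where 1 recovered library was at the chilled level. Amine oxidase MELO3C014479.2 had 10 to 16 counts in unchilled, 73 to 436 in chilled and 0 or 1 in recovered libraries. Of 33 aldo-keto reductases, alkenal reductases and glyoxalases, 3 rose and 9 fell in chilled fruit (median -0.22), and 7 rose and 6 fell after warming (median -0.19). The alkenal reductases MELO3C018669.2 (23.8 ± 2.29, 128.8 ± 2.25 and 30.01 ± 4.29) and MELO3C011440.2 (160 ± 24.8, 15.0 ± 0.535 and 151 ± 16.5) moved in opposite directions, and the aldo-keto reductases MELO3C024222.2 (13.5, 28.8 and 11.9) and MELO3C023740.2 (16.1, 1.80 and 12.5) did so as well. The rise of MELO3C024222.2 was under the fold threshold with library totals. Its log2 fold change was 0.979 to 1.19 with single libraries left out and 0.568 to 1.19 over all alternatives. Cinnamyl aldehyde enzymes had 0 higher and 11 lower of 20 in chilled fruit (median -1.66) and 8 higher and 2 lower after warming (median 0.57), among them cinnamyl alcohol dehydrogenase MELO3C019548.2 (56.0 ± 12.9, 1.17 ± 0.258 and 39.8 ± 7.22) and cinnamoyl-CoA reductase MELO3C030668.2 (24.5, 0.992 and 4.78).

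For recovered against unchilled fruit, where 12.8% of all genes were called, the lists had 1 higher and 0 lower of 6 for proline, 0 and 2 of 6 for the GABA shunt, 1 and 1 of 21 for branched-chain amino acids, 1 and 1 of 6 for amine oxidation and 0 and 1 of 8 for pyruvate decarboxylases and acetyl-CoA synthetases. Alcohol dehydrogenases had 1 higher and 3 lower of 13, the aldo-keto and alkenal reductases with glyoxalases 3 and 3 of 33, and cinnamyl aldehyde enzymes 1 and 6 of 20. In recovered against chilled fruit 0 of 6 proline genes were higher and 2 lower (median -0.24), and these 2 again include MELO3C002203.2.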

How the data were processed

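RNA from ripe fruit was sequenced as paired reads. Per the submitters' processing notes, the authors trimmed reads with cutadapt 1.15 and aligned them with HISAT2 2.0.5, and the study's methods name the DHL92 genome and HTSeq counting. The deposited table holds, for each gene in every library, a read count and an FPKM, without pooling. The deposited FPKM equal counts over gene length and library total (largest difference 4.55e-11). Counts were tested in R 4.3.3 with edgeR 4.0.16 (robust quasi-likelihood fit of all 9 libraries, TMM factors, no block, genes with mean FPKM above 1, Benjamini-Hochberg adjustment over 15022 genes), and SE is the absolute log2 fold change over the square root of F. Total counts are 15508367 to 19011486, and replicates differed beyond sampling noise (chi-square per gene 6.85 to 51.5). Permutation tests used scipy. The 5 genes and all lists were chosen with earlier results of these data known, and lists were trimmed by annotation only. Named genes are the 5 genes, any tested superfamily gene, of each list the 2 highest and 2 lowest called in chilled against unchilled fruit with a mean FPKM of at least 5, and the 3 described genes most alike in pattern; MELO3C002204.2, MELO3C010495.2 and the other proline genes were added with values in view. The alternatives tried were DESeq2 1.42.0, its size factors, library totals, no filter, filterByExpr, a replicate block, fits of 2 groups, limma 3.58.1 on log2 of deposited FPKM with pseudocounts of 1 and 0.1, an adjusted p below 0.01, no fold threshold, each library left out, and levels on deposited FPKM.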

Additional observations from a re-analysis of the deposited data

How the results depend on the processing

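Of 300 log2 fold changes of the 5 genes under 20 alternatives, 284 kept their direction and side of the threshold, 16 passed it only under the alternative, and none turned or was lost. Library totals moved the median of all genes to -0.56 for chilled against unchilled and 0.49 for recovered against chilled fruit, limma to -0.49 and 0.41 (pseudocount 1) or -0.56 and 0.48 (0.1), and the gains are therefore read against that shift. In recovered against chilled fruit MELO3C014601.2 passed with DESeq2 (1.21), library totals (1.72), no filter (1.35), 2 groups in the fit (1.30), limma (1.11 and 1.62 with pseudocounts of 1 and 0.1), and, with single libraries left out (1.01 to 1.40), without unchilled replicate 1 or 2, at adjusted p of 0.00293 to 0.164 over all alternatives. MELO3C017542.2 passed there with library totals (1.48) and limma (1.33 and 1.498), at 0.0381 to 0.376. In recovered against unchilled fruit DESeq2 called MELO3C014601.2 (-1.22) and MELO3C017542.2 (-1.26), and leaving libraries out gave -1.59 to -0.44 for the first, past the threshold without unchilled replicate 2. Without a fold threshold MELO3C002203.2 passed (0.27). The causes were not tested.

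Counts moved as well. In recovered against chilled fruit the main fit had 4 higher and 3 lower of 16 superfamily genes. There were 9 higher with library totals, 7 with no filter, 9 and 10 with limma (with 1 lower at a pseudocount of 1) and 8 without a fold threshold. The median log2 fold change of all genes was then at 0.49 with library totals, 0.12 with no filter and 0.41 and 0.48 with limma. Shares of all genes called higher with library totals, no filter and limma are not given here. These counts are therefore not read as a result about the family. In recovered against unchilled fruit the superfamily had 3 lower with DESeq2, 0 at an adjusted p below 0.01 and 0 to 2 with libraries left out (0 without recovered replicate 3). Without a fold threshold it had 4 higher and 2 lower there, and 2 higher in chilled against unchilled fruit. Over all genes limma called 2066 and 2194 higher in chilled against unchilled fruit and, with a pseudocount of 1, 2334 lower in recovered against chilled fruit. Without a fold threshold 5442 were higher in chilled against unchilled, 5680 higher and 5898 lower in recovered against chilled, and 2619 higher and 2875 lower in recovered against unchilled fruit. On deposited FPKM MELO3C002203.2 averaged 79.98 without storage, 259 in the cold and 96.9 after warming, MELO3C010494.2 at 1.26 in chilled and 23.2 in recovered, and MELO3C021272.2 at 10.9 in unchilled and 2.26 in chilled fruit.

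With the replicate number as a replicate block, MELO3C014601.2 passed in recovered against chilled fruit (1.30, adjusted p 0.0441) and no other call of the 5 genes changed. Deviations of same-numbered libraries correlated at -0.184 to 0.206. These values show no clear pairing by number, and with 3 libraries per group they cannot exclude one. Depth limits the chilled values of MELO3C014601.2, with 26 to 34 counts per library.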
